A study of Mus musculus with 3 samples.

Results

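The genes of the transforming growth factor beta (TGF-beta) and bone morphogenetic protein (BMP) pathways were followed in RNA-seq libraries of wild-type (WT) mouse embryonic fibroblasts (MEFs), cells grown out of dissociated embryos. The members were taken by name as 51 genes of ligands, receptors, secreted antagonists, latent binding proteins, Smads, Id genes and intracellular regulators, and 51 of 51 were found among the 21782 genes of the count table. The labels name no deletion and no agent for these WT MEFs, which came from E12.5 embryos and were grown asynchronously in medium with 20% serum. The 3 clones, here clones 1, 2 and 3, gave 1 library each. There was thus 1 condition, and differences are differences between libraries, since a clone, its culture and its library cannot be told apart. The sources used here do not say whether the clones came from separate embryos, so p-values concern only the spread between these libraries, which may be technical.

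TGF-beta family ligands are secreted dimers that bind a type II receptor, which then phosphorylates a type I receptor. The type I receptor phosphorylates receptor Smads (SMAD2 and SMAD3 for TGF-beta and activin, SMAD1, SMAD5 and SMAD9 for BMP), and these enter the nucleus with SMAD4. Fibroblasts are known as a source of latent TGF-beta, which is stored in the matrix bound to latent TGF-beta binding proteins, and as cells that answer active TGF-beta with matrix synthesis. Serum is a source of such ligands too, which RNA-seq of the cells does not measure.

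The libraries held between 22594316 and 25261357 counts on genes. A floor was set at 3 counts, which corresponded to 0.119 to 0.133 counts per 1000000 counts (CPM). Of the fibroblast markers, 9 of 9 were expressed, and Col1a1 of type I collagen had the highest level of them, at 4223 ± 576 CPM per kb of annotated exon (SD, n = 3). Of the endothelial, epithelial, cartilage and bone, skeletal muscle and neural markers, 2 of 8, 2 of 7, 4 of 10, 2 of 6 and 3 of 6 were expressed. The endothelial gene Pecam1 and the epithelial gene Epcam were near 0, with 6, 15 and 6 counts and 5, 1 and 3 counts in clones 1, 2 and 3. Other genes of these lists were not. In clones 1, 2 and 3 the endothelial list summed to 73.9, 97.1 and 90.6 CPM and the epithelial list to 20.8, 40.9 and 29.9 CPM. The cartilage and bone list summed to 799, 551 and 778 CPM, the muscle list to 202, 200 and 223 CPM and the neural list to 955, 649 and 896 CPM. Clone 2 stood apart in macrophage genes. Their levels summed to 2060 CPM there, compared with 438 and 365 CPM in clones 1 and 3, and 15 of 15 tested markers were highest in clone 2. Clone 1 stood apart in the cell cycle, with 10 of 10 cell cycle genes lowest and 3 of 3 arrest genes highest there. A gene was called as differing between libraries where a chi-square test of its counts passed an adjusted p of 0.05. This test sets the libraries against counting noise alone, while the biological coefficient of variation between them was 0.187. In bulk RNA, more cells of a type and more RNA per cell cannot be told apart.

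Most of the pathway was transcribed. At 1 CPM or more in every clone, 43 of the 51 members (84.3%) were expressed, compared with 52.2% of all genes in the table. The 8 others were the BMP and GDF ligands Bmp2, Bmp5, Bmp6, Bmp7, Gdf5 and Gdf10, the type II receptor gene Acvr2b and the antagonist gene Chrdl1. Even so, 50 members had more than 3 counts in every clone, and the exception was Bmp7 with 1, 1 and 4 counts. Per kb of exon, 31 members lay above 5.46 CPM per kb, the median of all expressed genes. Levels spanned several orders of magnitude, from Fstl1 at the top to Bmp7 at the bottom.

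**Figure D1:**
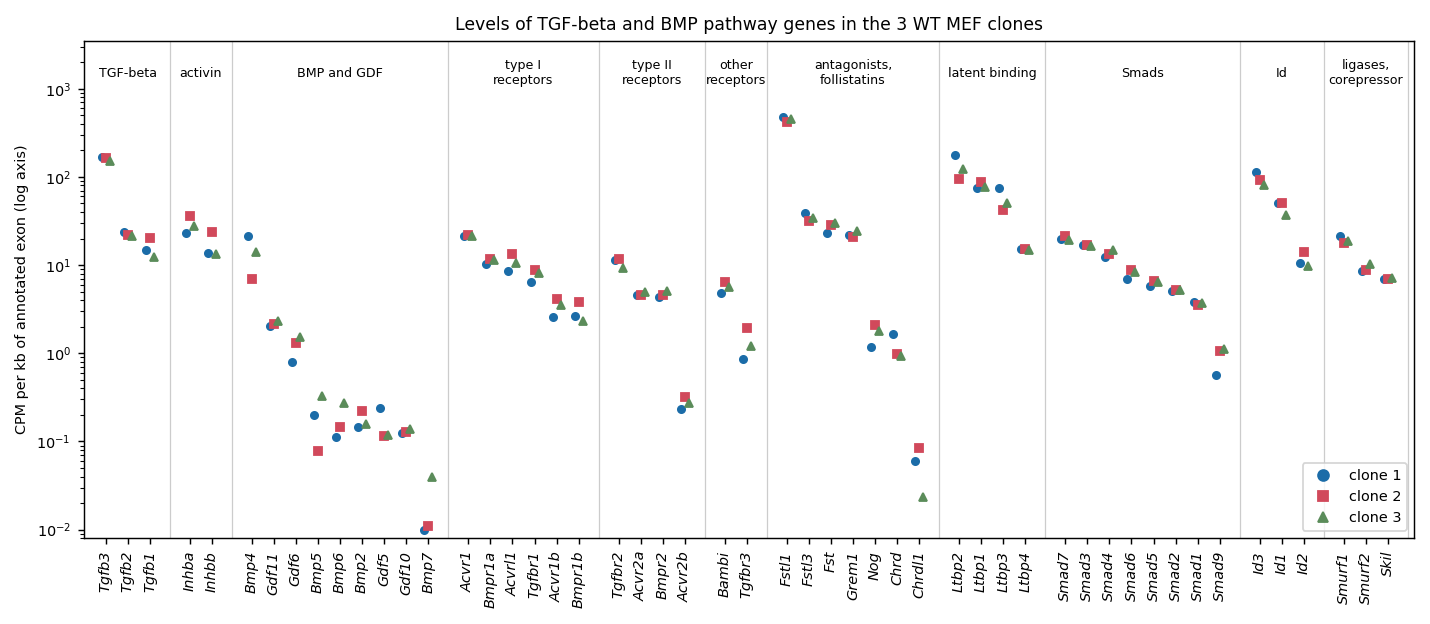
Level of each pathway gene in CPM per kb of annotated exon (log axis), with 1 point per clone and genes grouped by role and ordered by mean. Points of a gene mostly lie close together, Fstl1 is highest at 419 to 475 CPM per kb, and Bmp4 shows the widest gap between clones among ligands above 1 CPM per kb.

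Among the ligands, Tgfb3 was the leading transcript. It had 13979, 12642 and 12956 counts in clones 1, 2 and 3, which is 161 ± 8.32 CPM per kb (SD, n = 3). Tgfb2 had 3394, 2903 and 3098 counts, or 22.3 ± 1.21 CPM per kb, and Tgfb1 had 1853, 2288 and 1559 counts, or 15.7 ± 4.02 CPM per kb. Each clone thus had the same order, with Tgfb3 7.22 times the level of Tgfb2 and no overlap of their ranges. The 3 genes encode the TGF-beta isoforms, which are made as latent precursors. Tgfb3 took 80.9% ± 1.18 (SD, n = 3) of the counts per kb of the 3 genes, Tgfb2 11.2% ± 0.464 and Tgfb1 7.84% ± 1.62. Divided by the length of the transcript with the longest coding part (the longest coding transcript from here on), the Tgfb3 share was 68.8%, and Tgfb2 and Tgfb1 were then nearly level at 15.8% and 15.4%, with Tgfb1 above Tgfb2 in 1 clone. Exons on the opposite strand overlap 12.4% of the exon length of Tgfb3.

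Both activin beta subunit genes were expressed, and both were highest in clone 2. Inhba, which encodes the subunit of activin A, had 3624, 5234 and 4532 counts in clones 1, 2 and 3, or 29.1 ± 6.80 CPM per kb (SD, n = 3). Inhbb, for activin B, had 1454, 2294 and 1452 counts, or 17.1 ± 5.93 CPM per kb. Inhba was above Inhbb in each clone, but their ranges over the clones overlapped. The Inhba share of both was 63.4% ± 3.71 (SD, n = 3). The ratio of the highest to the lowest clone in CPM was 1.59 for Inhba and 1.77 for Inhbb. Clone 2 was also the clone with the high macrophage genes given above, whose part in these differences was not tested.

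The BMP and GDF ligands were the least expressed class, with 3 of 9 at 1 CPM or more in every clone. Bmp4, a ligand of the BMP branch, was the only one of them above 10 CPM in every clone, and it was unequal between clones. Its counts were 1180, 349 and 797 in clones 1, 2 and 3, at 47.5, 15.5 and 31.5 CPM, which is 14.0 ± 7.12 CPM per kb (SD, n = 3). The ratio of the highest to the lowest clone was 3.07, the largest among the tested members. Gdf11 followed with 204, 198 and 236 counts, at 2.16 ± 0.139 CPM per kb (SD, n = 3), and no difference was called for it. Gdf6 had 70, 104 and 137 counts and a ratio of 1.93. Below the threshold, Bmp2 had 13, 18 and 14 counts, Bmp5 20, 7 and 33, Bmp6 11, 13 and 27, Gdf5 14, 6 and 7, and Gdf10 16, 15 and 18. These low levels were not separated from each other, since the ranges of neighbours from Bmp5 to Gdf10 overlapped. For Bmp5 and Gdf5, 46.7% and 40.3% of the exon length also lies under exons on the opposite strand, so even these counts are uncertain.

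**Figure D2:**
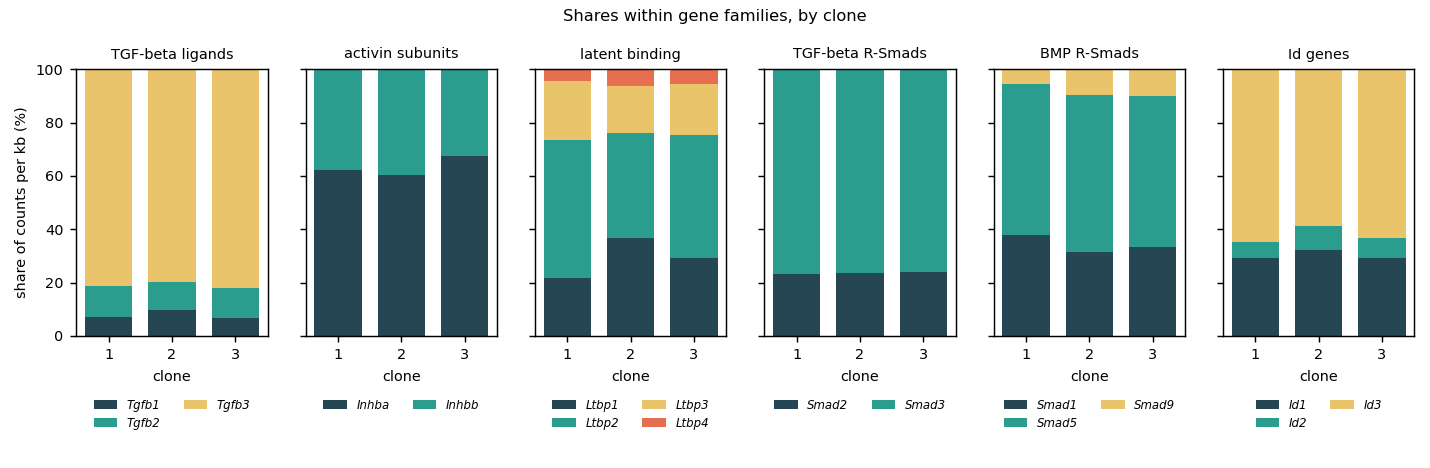
Share of each gene in the counts per kb of its family (%, bars from 0 to 100) in clones 1, 2 and 3. Tgfb3, Smad3 and Id3 hold the largest share of their families in every clone, while the Ltbp2 share runs from 39.4% in clone 2 to 51.6% in clone 1.

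Receptors of every class were present. Of the type I receptors, 6 of 6 were expressed, and of the type II receptors 3 of 4. Acvr1, which encodes the BMP receptor ALK2, was the highest type I gene with 2555, 2397 and 2611 counts in clones 1, 2 and 3, at 21.6 ± 0.386 CPM per kb (SD, n = 3). It was among the most even members, with a ratio of 1.03 between clones and no difference called. Bmpr1a, another BMP receptor, had 1638, 1663 and 1833 counts, or 11.1 ± 0.664 CPM per kb, and was not separated from Acvrl1, the ALK1 gene known from endothelium, at 10.8 ± 2.38. Tgfbr1, the type I receptor of TGF-beta itself, stood at 7.73 ± 1.17 CPM per kb, and Acvr1b and Bmpr1b lay lower at 3.43 and 2.92. Except for Acvr1, the type I genes differed between libraries, and 5 of 5 were highest in clone 2, with ratios from 1.12 for Bmpr1a to 1.65 for Bmpr1b. Of all tested genes, 62.5% were called as differing, and 23.5% were called and highest in clone 2. With total counts in place of scaled library sizes, Bmpr1a was instead highest in clone 3. The macrophage and cell cycle genes were highest in clone 2 as well, and the 2 endothelial markers tested had medians of -0.38, 0.18 and 0.20 in clones 1, 2 and 3 (log2(CPM + 1), from the clone mean). Their part in this was not tested.

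Of the type II receptors, Tgfbr2 was highest with 2339, 2190 and 1921 counts in clones 1, 2 and 3, or 10.9 ± 1.39 CPM per kb (SD, n = 3). Its product binds TGF-beta and recruits the TGFBR1 protein. Acvr2a had 641, 593 and 716 counts, or 4.72 ± 0.238 CPM per kb, and its range overlapped that of the BMP receptor gene Bmpr2 at 4.66 ± 0.388. Per kb of the longest coding transcript, Acvr2a was below Bmpr2 in each clone, at 4.72 compared with 6.49 CPM per kb. Acvr2b, the other activin type II gene, had 23, 28 and 27 counts, and Bmpr2 was 16.9 times as high per kb. Bambi, which encodes a receptor-like protein without a kinase, had 603, 745 and 724 counts. Tgfbr3 encodes betaglycan, a coreceptor that presents TGF-beta 2 to the signalling receptors. Its counts were 139, 289 and 201 in clones 1, 2 and 3, and its ratio of 2.29 was the largest among the receptors.

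The secreted antagonists and follistatin relatives held both the highest member and near-silent ones. Fstl1, a follistatin-like glycoprotein gene of mesenchyme, had 58050, 46399 and 55833 counts in clones 1, 2 and 3. Its 448 ± 28.4 CPM per kb (SD, n = 3) lay at the 99.4th percentile of expressed genes and was 2.78 times the level of Tgfb3, the next member. Fstl3 and Fst both encode activin-binding proteins. Fstl3 had 2351, 1726 and 2125 counts, or 34.8 ± 3.71 CPM per kb, and Fst 2661, 2943 and 3458 counts, or 27.2 ± 3.42. The order of Fstl3 and Fst depends on length. Fstl3 was above Fst in 3 of 3 clones per kb of exon and in 0 of 3 per kb of the longest coding transcript, and 47.3% of the Fstl3 exon length is overlapped by Prss57 on the opposite strand. Grem1, the gremlin gene, reached 22.4 ± 1.75 CPM per kb. The other BMP antagonists were low, with Nog (noggin) at 1.69 ± 0.462 and Chrd (chordin) at 1.19 ± 0.415 CPM per kb, and Chrdl1 had 10, 13 and 4 counts. Per kb of exon, the range of Grem1 overlapped that of Fst, while per kb of the longest coding transcript Fst was at 67.4 ± 8.48 and Grem1 at 22.4 ± 1.75 CPM per kb (SD, n = 3). The levels of Nog and Chrd lay far below both.

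Of the latent TGF-beta binding proteins, Ltbp2, Ltbp1 and Ltbp3 were among the highest members, and Ltbp2 and Ltbp3 were unequal between clones. Ltbp2, a microfibril protein gene, had 35727, 17525 and 25467 counts in clones 1, 2 and 3, at 131 ± 41.0 CPM per kb (SD, n = 3). Ltbp1, whose product carries the latent TGF-beta complex to the matrix, had 19767, 21369 and 20972 counts, or 80.2 ± 7.45 CPM per kb. Ltbp3 had 16837, 8627 and 11524 counts and Ltbp4 2467, 2198 and 2453 counts. Ltbp2 and Ltbp3 were thus high in clone 1, intermediate in clone 3 and low in clone 2, with ratios of 1.85 and 1.77, while Ltbp1 was lowest in clone 1 with a ratio of 1.19. Ltbp4 showed no called difference and had a ratio of 1.02, among the smallest of the tested members. Ltbp1 took 26.4% of the raw counts of the 4 genes in clone 1 (95% Wilson interval 26.1 to 26.7), 43.0% in clone 2 (42.5 to 43.4) and 34.7% in clone 3 (34.3 to 35.1). These intervals cover counting error only and do not overlap. Per kb of exon, the Ltbp2 share of the family was 45.8% ± 6.13 (SD, n = 3). Per kb of the longest coding transcript, Ltbp2 remained above Ltbp1 in 2 of 3 clones.

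Bmp4, Ltbp2 and Ltbp3 were the members with a ratio over 1.7 that were highest in clone 1 and lowest in clone 2. Clone 1 also had the low cell cycle genes and a median of 0.23 for the fibroblast markers (log2(CPM + 1), from the clone mean), and clone 2 the high macrophage genes, and the part of these in the order was not tested. The promoter windows of the 3 genes are printed because these members shared this order, and those of Tgfb1 and Tgfb2 because these isoform genes did not share theirs. Each window holds 250 bases before and 50 bases after the RefSeq start on the GRCm38.p6 build, read 5′ to 3′ on the gene's strand. Capitals mark the GC box GGGCGG, the Smad box CAGAC, the E box CACGTG and the AP-1 site TGANTCA on either strand and the TATA box TATAAA on the gene's strand.
Bmp4, chr14:46390620-46390919, minus strand: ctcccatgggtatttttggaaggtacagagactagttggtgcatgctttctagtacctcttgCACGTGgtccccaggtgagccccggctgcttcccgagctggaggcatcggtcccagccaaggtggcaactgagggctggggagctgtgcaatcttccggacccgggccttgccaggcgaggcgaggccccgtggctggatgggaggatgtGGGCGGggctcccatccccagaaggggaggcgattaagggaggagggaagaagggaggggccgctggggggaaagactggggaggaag
Ltbp2, chr12:84876442-84876741, minus strand: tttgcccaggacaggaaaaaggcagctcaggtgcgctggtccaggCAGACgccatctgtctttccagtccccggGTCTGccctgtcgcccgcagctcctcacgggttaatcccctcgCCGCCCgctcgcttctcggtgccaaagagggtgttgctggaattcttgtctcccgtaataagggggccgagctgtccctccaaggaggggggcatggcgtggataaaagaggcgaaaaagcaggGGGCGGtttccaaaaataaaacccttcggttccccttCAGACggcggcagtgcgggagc
Ltbp3, chr19:5740650-5740949, plus strand: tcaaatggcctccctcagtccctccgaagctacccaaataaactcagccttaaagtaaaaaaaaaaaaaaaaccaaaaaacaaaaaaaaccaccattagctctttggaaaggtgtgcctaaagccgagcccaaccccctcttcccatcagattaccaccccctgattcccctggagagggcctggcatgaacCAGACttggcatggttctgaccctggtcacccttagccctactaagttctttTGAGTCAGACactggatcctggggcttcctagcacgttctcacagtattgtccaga
Tgfb1, chr7:25686752-25687051, plus strand: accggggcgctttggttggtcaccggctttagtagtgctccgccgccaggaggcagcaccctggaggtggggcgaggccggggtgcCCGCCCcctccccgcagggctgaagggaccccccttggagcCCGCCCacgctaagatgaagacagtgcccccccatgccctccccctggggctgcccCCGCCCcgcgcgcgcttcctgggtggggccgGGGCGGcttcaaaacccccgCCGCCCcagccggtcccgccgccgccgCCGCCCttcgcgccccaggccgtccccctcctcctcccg
Tgfb2, chr1:186705940-186706239, minus strand: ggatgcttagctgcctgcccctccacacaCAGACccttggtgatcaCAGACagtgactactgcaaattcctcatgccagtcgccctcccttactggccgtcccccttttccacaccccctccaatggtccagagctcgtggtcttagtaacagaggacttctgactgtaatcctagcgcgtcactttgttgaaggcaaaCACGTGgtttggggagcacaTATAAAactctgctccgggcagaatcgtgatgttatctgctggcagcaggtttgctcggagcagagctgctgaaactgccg
The Bmp4 window has a GC box 38 bases and an E box 188 bases before the start. The Ltbp2 window has a pair of GC boxes, 133 and 9 bases before the start, and 3 Smad boxes. The Ltbp3 window has no GC box. Its AP-1 site 6 bases before the start overlaps a Smad box. Tgfb1 and Tgfb2 differ in kind, since the Tgfb1 window has 6 GC boxes and no TATA box and the Tgfb2 window has a TATA box 31 bases before the start and no GC box. These matches describe letters only.

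RefSeq windows were at hand for 35 of the 51 members, with 43 windows among the 32851 windows of all genes. The GC box was in 74.4% of the members' windows, compared with 35.7% of all windows. The GC-rich Smad element GGCGCC, a palindrome that can overlap a GC box, was in 32.6% and in 11.9%, the Smad box in 48.8% and in 49.6%, the E box in 9.30% and in 7.15%, the TATA box in 9.30% and in 8.32%, and the AP-1 site in 2.33% and in 7.81%. The median ratio of observed to expected CpG was 0.751 for the members' windows and 0.384 for all windows. Most of the members with a window were expressed and the comparison set was not limited to expressed genes, so no difference is drawn from these shares.

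The Smad genes ran from 0.921 CPM per kb for Smad9 to 20.2 CPM per kb for Smad7, and 8 of 8 reached 1 CPM in every clone. Of the receptor Smads for TGF-beta and activin, Smad3 had 2333, 2124 and 2326 counts in clones 1, 2 and 3 and Smad2 1120, 1035 and 1171 counts. Smad3 took 76.4% ± 0.440 (SD, n = 3) of their counts per kb, and the share was nearly the same in each clone. Of their raw counts, Smad3 had 67.6% in clone 1 (95% Wilson interval 66.0 to 69.1), 67.2% in clone 2 (65.6 to 68.9) and 66.5% in clone 3 (64.9 to 68.1). Of those for BMP, Smad5 had 1062, 1111 and 1195 counts, Smad1 601, 495 and 592, and Smad9 76, 129 and 153. The Smad5 share was 57.5% ± 1.52 (SD, n = 3) per kb of exon, and 45.6% per kb of the longest coding transcript, where Smad1 led with 48.5%. Smad9 was low on either length, at 8.38% and 5.92%. Smad4, whose product joins both branches, had 1130, 1105 and 1382 counts, or 13.4 ± 1.26 CPM per kb (SD, n = 3). The gene of the inhibitory Smad7 was the highest Smad gene at 20.2 ± 1.22 CPM per kb, with 2213, 2205 and 2213 counts, and Smad6 had 552, 642 and 678 counts. No difference was called for Smad1, Smad2 or Smad3, with ratios of 1.10, 1.03 and 1.02. Smad9 had a ratio of 1.98, just under 2-fold.

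The Id genes encode inhibitors of basic helix-loop-helix factors and are direct targets of BMP receptor Smads. Id3 had 5053, 3759 and 3685 counts in clones 1, 2 and 3, or 96.0 ± 16.3 CPM per kb (SD, n = 3), Id1 had 1472, 1339 and 1092 counts, or 46.5 ± 8.0, and Id2 had 638, 781 and 595 counts, or 11.5 ± 2.41. The order was the same in each clone, with Id3 at 62.3% ± 3.20 (SD, n = 3) of the counts per kb of the 3 genes. All 3 were lowest in clone 3, whereas Id3 was highest in clone 1, and Id1 was at 59.2, 59.4 and 43.2 CPM. Bmp4 was also highest in clone 1, as Id3 was, but it was lowest in clone 2. A link between Bmp4 and the Id genes was not tested. Among the intracellular regulators, Smurf1, a ubiquitin ligase gene, had 3407, 2512 and 3021 counts and was highest in clone 1. Its relative Smurf2 had 1304, 1230 and 1586 counts and was highest in clone 3. Skil, which encodes the Smad corepressor SnoN, had 1687, 1519 and 1756 counts with no called difference and a ratio of 1.03.

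A Pearson chi-square test compared the 3 counts of each gene with the scaled library sizes, with Benjamini-Hochberg adjustment over all 12218 genes that had at least 10 counts in every library. Of the 51 members, 47 entered it, and Bmp5, Bmp7, Gdf5 and Chrdl1 did not. Counts differed between libraries for 36 members (76.6%), compared with 62.5% of all tested genes. The tested members had more counts than most genes, with a median of 54.0 CPM compared with 22.4 CPM, and more counts let smaller differences be called. The median ratio between the highest and lowest clone was 1.28 for the members and 1.24 for all tested genes. Only 3 members (6.38%) both differed and reached 2-fold, compared with 7.93% of all tested genes, so the members' share was near the background. The 11 tested members with no called difference were Bmp2, Gdf10, Gdf11, Acvr1, Acvr2a, Acvr2b, Ltbp4, Smad1, Smad2, Smad3 and Skil.

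**Figure D3:**
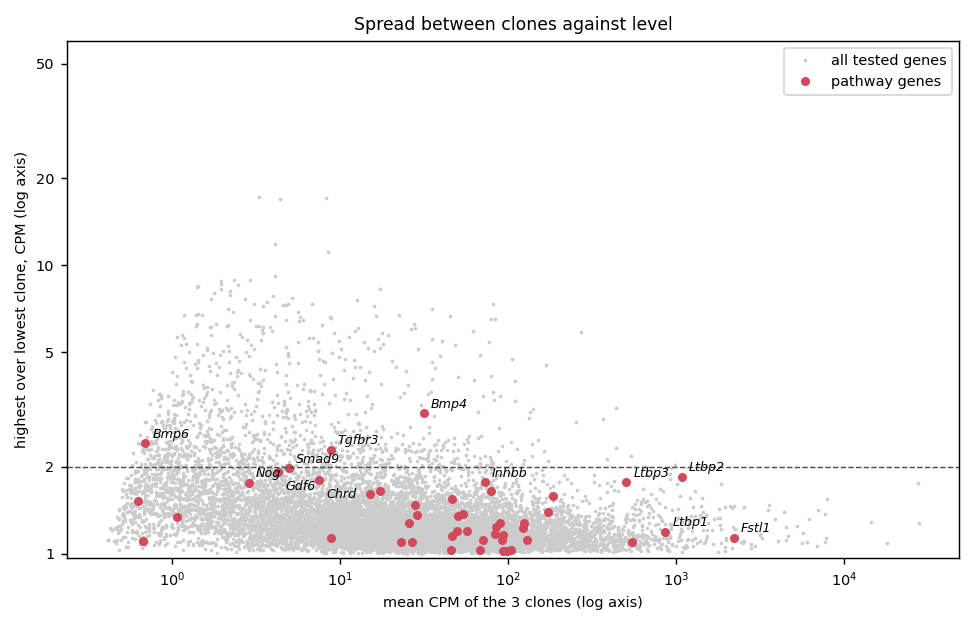
Ratio of the highest to the lowest clone in CPM against the mean CPM of the 3 clones (both axes log) for all 12218 tested genes in grey and the 47 tested pathway genes in red, with a dashed line at a ratio of 2. Bmp4, Tgfbr3 and Bmp6 lie above the line at 3.07, 2.29 and 2.41, and most members lie under 1.5.

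The 3 members past 2-fold were Bmp4, Tgfbr3 and Bmp6, each with its own order of clones. Bmp4 (chromosome 14, 46383520 to 46390669, GRCm38) was highest in clone 1 and lowest in clone 2, with a ratio of 3.07. Tgfbr3 (chromosome 5, 107106570 to 107289629) was highest in clone 2 and lowest in clone 1, with a ratio of 2.29. Bmp6 (chromosome 13, 38345107 to 38500302), another BMP ligand gene, rested on 11, 13 and 27 counts, with a ratio of 2.41 and an adjusted p of 0.035 in the chi-square test with Benjamini-Hochberg adjustment. These calls do not allow for the usual spread between clones. Without clone 1 the count of such members was 1 (Bmp4), without clone 2 it was 1 (Bmp6), and without clone 3 it was 2 (Bmp4 and Tgfbr3). These were 2.13%, 2.08% and 4.17% of the tested members, compared with 3.94%, 1.64% and 6.78% of all tested genes. The opposite order of Bmp4 and Tgfbr3 in clones 1 and 2 held with each scaling of library size. The scaling factors (TMM) ran only from 0.984 to 1.019, too little to reverse ratios of this size, so this check could hardly fail. Over 3 clones, an exact two-sided sign-flip test cannot give a p below 0.25, and it was not run.

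Clone 2 was the highest clone for the largest number of differing members. Of the tested members, 18 (38.3%) differed and were highest in clone 2, compared with 23.5% of all tested genes. These shares also depend on how often a difference was called, which was 76.6% for the members and 62.5% for all tested genes. Among called genes alone, 18 of 36 members and 2867 of 7642 genes were highest in clone 2. Clone 1 was highest for 10 members (21.3%, background 23.8%) and clone 3 for 8 (17.0%, background 15.3%). The members' median deviation from the clone mean, on the log2(CPM + 1) scale, was -0.08, 0.04 and -0.00 in clones 1, 2 and 3. This median pools role classes that went in different directions. In clone 2 it was 0.44 for the activin subunits and 0.23 for the type I receptors. It was -0.18 there for the latent binding proteins and -0.09 for the secreted antagonists and follistatin family. The differing members highest in clone 2 with a ratio over 1.5 were Tgfb1, Inhba, Inhbb, Acvr1b, Acvrl1, Bmpr1b, Tgfbr3 and Nog. The macrophage markers had medians of -0.69, 1.47 and -0.85 and the cell cycle genes of -0.64, 0.43 and 0.18 on that scale, and their part in the members' order was not tested. The highest clone was the same with each scaling for 34 of the 36 members, and the exceptions were Bmpr1a and Tgfb3, which was highest in clone 2 with total counts.

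**Figure D4:**
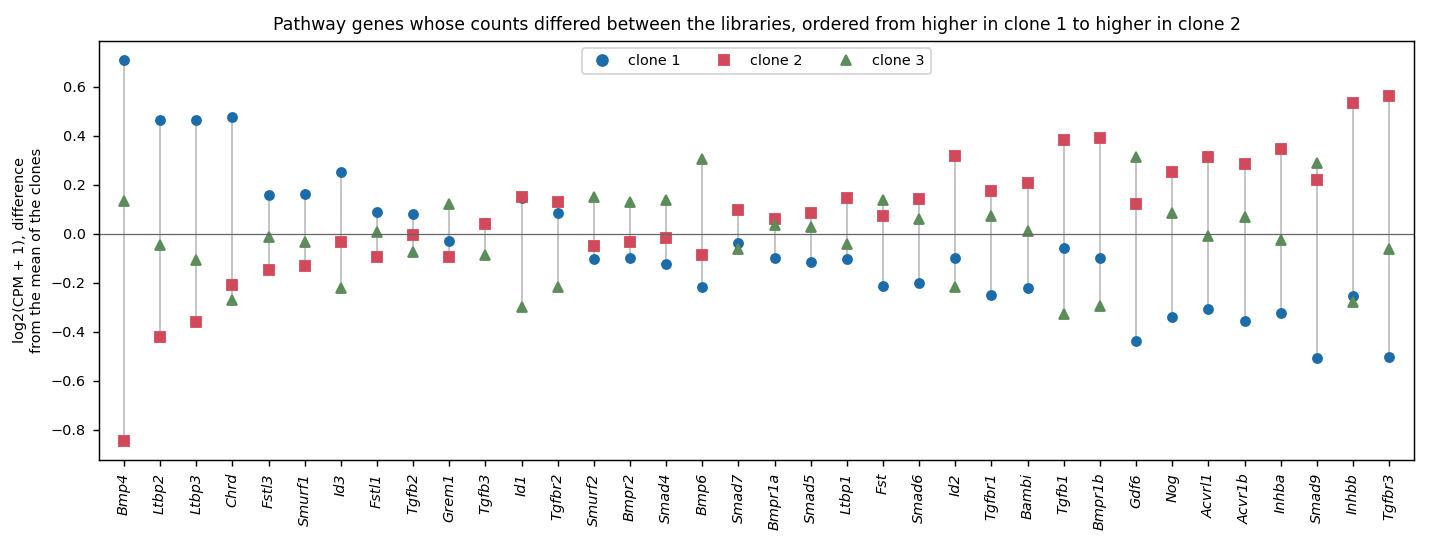
Deviation from the clone mean of log2(CPM + 1) for the 36 members whose counts differed between libraries, ordered from those higher in clone 1 than in clone 2 to the reverse. Bmp4, Ltbp2, Ltbp3 and Chrd stand at the clone 1 end, and Tgfbr3, Inhbb and Smad9 at the other.

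The other genes of the pathway were read from lists of 103 genes that are not members. Of these, 70 were expressed, 58 of 75 tested differed between libraries and 6 of them by at least 2-fold, with a median ratio of 1.27. Over all genes, 52.2% were expressed, and 62.5% of those tested differed, 7.93% with a ratio of at least 2. Of the other ligands, 3 of 19 were expressed (Gdf15, Bmp8b and Inha), and 9 had 3 counts or fewer in every clone. The most abundant of them, Gdf15, a stress-induced ligand gene, had 282, 245 and 438 counts in clones 1, 2 and 3. Of the other receptors and coreceptors, 3 of 8 were expressed, led by Eng (endoglin) with 1085, 791 and 960 counts. Ligands and receptors outside the member list were thus mostly near 0.

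Of the other secreted antagonists, 9 of 16 were expressed and 7 of 9 tested differed. Dcn, which encodes the TGF-beta binding proteoglycan decorin, had 258, 173 and 130 counts in clones 1, 2 and 3 and a ratio of 2.02. Ligand processing and activation genes were abundant, with 12 of 15 expressed. Thbs1 (thrombospondin 1, an activator of latent TGF-beta) led them at 2967 ± 134 CPM per kb (SD, n = 3). Of these genes 11 of 13 tested differed, 0 of them by 2-fold, a count that was also 0 among the other intracellular regulators, where 13 of 19 tested differed. Fkbp1a, whose product binds the type I receptors, led the latter at 95.5 ± 5.31 CPM per kb.

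Known target genes were also read. Of the TGF-beta targets, 16 of 16 were expressed and 16 of 16 tested differed, with a median ratio of 1.34, compared with 62.5% of all tested genes and a median ratio of 1.24. The median level of these targets was 555 CPM, compared with 22.4 CPM over all tested genes, and at such counts small differences are called. Col1a1, given above among the fibroblast markers, was also the highest of these targets per kb, with 796323, 584920 and 635170 counts in clones 1, 2 and 3. Cdkn2b, a cell cycle inhibitor gene that is also in the arrest list, had 1708, 729 and 1033 counts, the same order of clones as Bmp4, Ltbp2 and Ltbp3, and Bhlhe40 had 2562, 1538 and 1279 counts. The medians of this list were 0.09, -0.01 and -0.07 in clones 1, 2 and 3 on the log2(CPM + 1) scale. Of the BMP targets, 8 of 10 were expressed and 6 of 10 tested differed, 2 of them by at least 2-fold. Id4, the remaining Id gene, had 156, 373 and 175 counts and was highest in clone 2. Tbx20, a heart transcription factor gene, had 16, 19 and 41 counts. Atoh8, a helix-loop-helix factor gene, was the highest of these targets per kb of exon at 6.05 ± 1.96 CPM per kb (SD, n = 3), whereas per kb of the longest coding transcript it was at 6.44 and Runx2, a bone transcription factor gene, at 14.3 CPM per kb. The medians of the BMP targets were -0.07, 0.13 and -0.05. These list medians were small beside those of the macrophage and cell cycle lists, as the plot of the lists shows. Genes that deviate in opposite directions cancel in such a median, so it does not measure the size of the differences. The median ratio of the highest to the lowest clone was 1.76 for the BMP targets. It was 2.15 for the cell cycle genes and 5.45 for the macrophage markers.

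**Figure D5:**
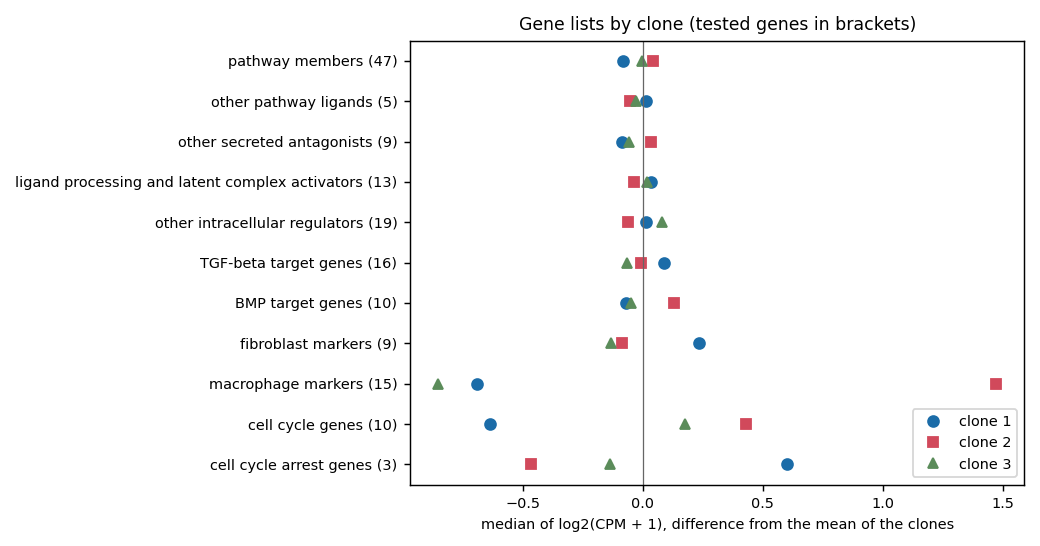
Median over the tested genes of each list of the deviation from the clone mean of log2(CPM + 1), with 1 point per clone and the number of tested genes in brackets. The members as a whole and the lists of other pathway and target genes stay within 0.13 of the mean in every clone, while macrophage markers reach 1.47 in clone 2 and cell cycle genes -0.64 in clone 1.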

How the data were processed

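PolyA-selected RNA of 3 WT MEF clones was sequenced as 86-nt single-end reads. The authors aligned them with TopHat 2.0.0 and its helpers SAMtools 0.1.16 and Bowtie 0.12.7, keeping reads with at most 2 mismatches and 5 hits, and deposited raw counts per gene from HTSeq, with no normalization. HTSeq's version, the annotation and the strand setting are not given in the sources used here, so reads of overlapping antisense genes cannot be told apart. The methods name mm10, whereas the submitters' processing notes list mm9. The table holds no coordinates. Positions and exon lengths came from GENCODE on GRCm38, with 21117 genes matched by symbol and 596 by synonym, and promoter windows from RefSeq.

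CPM used library sizes scaled by TMM (edgeR 4.0.16, R 4.3.3). The libraries totalled 25261357, 22594316 and 24791198 counts. Wilson intervals hold counting error alone, because each was taken from the counts of 1 library. No molecular identifiers were used to separate duplicate reads. Genes with at least 10 counts in every library entered the chi-square test (2 degrees of freedom), called at an adjusted p under 0.05, with a ratio of 2 as the rule of size. Log2 values used a pseudocount of 1 CPM. Scripts used Python 3.11.15 and scipy 1.17.1. The chi-square test was tested on simulated counts with counting noise alone, so this check does not cover the spread between clones. Counts are given for members called at 2-fold, the 2 highest per kb of a role class and those with family shares, and further members were named to account for all 51. A gene outside the members that this rule would name is not reported here. The members and lists were chosen with earlier results of these data known. Alternatives were DESeq2 1.42.0 size factors, total counts, other thresholds and lengths, and leaving out each clone.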

Additional observations from a re-analysis of the deposited data

How the results depend on the processing

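The number of expressed members lay between 43 and 50 under the thresholds and scalings tried, and the number of members differing between libraries between 35 and 37 under other scalings and count minimums. Under those scalings and minimums, 72.5% to 81.4% of the tested members differed, compared with 48.1% to 66.7% of all tested genes. Leaving out each clone gave 24 to 32 differing members and 1 to 2 members past 2-fold, in place of 36 and 3. Without clones 1, 2 and 3 in turn, 51.1%, 66.7% and 58.3% of the tested members differed. Of all tested genes, 31.7%, 45.4% and 53.0% differed then, and 3.94%, 1.64% and 6.78% differed and reached 2-fold. Total counts added Smad9 and no count minimum added Bmp5 to the members past 2-fold. Per kb of the longest coding transcript, the share was 68.8% for Tgfb3, 45.6% for Smad5 and 37.9% for Ltbp2. Without division by length it was 72.4% for Tgfb3, 67.1% for Smad3, 62.2% for Smad5, 67.7% for Id3 and 72.2% for Inhba, the last chosen after seeing the data. The lengths themselves set these changes. The mean CPM of 51 members moved by less than the SD between clones under each scaling. Leaving out 1 of 3 values cannot move a mean by as much as their SD, so that rule does not test the means without each clone. The mean of Bmp4 was 31.5 CPM with all clones, 23.5 CPM without clone 1 and 39.5 CPM without clone 2. No paired analysis was possible because the 3 libraries are of 1 group. Depth limits the members under 1 CPM, where a few counts separate the clones.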
